A study of Equus caballus with 17 samples.

Results

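Of 38849 horse gene IDs counted in cultured skeletal muscle cells, 227 were at least 1.5 higher on the log2 scale after 72 h than after 48 h at 21% O2, the oxygen level of room air. They were chosen from the counts. CPM, the count of a gene per 1000000 counts of its library, was averaged as log2(CPM + 1) over the libraries of each time, and the difference of the 2 means, T, had to reach 1.5. The mean at 21% O2 for 72 h also had to reach 5 CPM, and the 100 most abundant IDs were to be left out, which removed 0 genes. A further 30 IDs had a T of at least 1.5 but a mean under 5 CPM at 72 h. T and the levels at 21% O2 chose the genes, so they are given as a description and without a test.

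RNA had been sequenced from 17 libraries in 5 groups that differed in oxygen and time. The cells were grown from post-mortem gluteus medius of 1 foal, described in the labels as preterm and 10 months old. Pre-plating, which lowers the share of fibroblasts, gave a culture enriched in myoblasts, the dividing precursors of muscle fibres. After a night in room air on gelatin, cultures stayed in a standard incubator at 21% O2 for 48 h (5 libraries) or 72 h (4 libraries), or moved to a hypoxia workstation at 3% O2 for 72 h (3 libraries) or at 1% O2 for 48 h (3 libraries) or 72 h (2 libraries). All groups share the animal, the muscle and the medium. The workstation was used only below 21% O2, so oxygen and the kind of incubator cannot be told apart. By the labels, 3 technical replicates were prepared for each group, which does not match the 2 to 5 libraries that the groups hold. Whether the libraries come from separate cultures is not known. The p-values cover the spread between these libraries, which may be technical.

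Myoblasts divide while they are sparse. As they grow dense or lose growth factors they leave the cell cycle, switch on muscle proteins and fuse into myotubes. Low oxygen is sensed by enzymes that mark hypoxia-inducible factors for destruction when oxygen is plentiful, and in muscle cultures it is known to affect both growth and differentiation. The count tables carry IDs alone and do not pair them with symbols, and the reference table at hand holds no Ensembl IDs of this kind, so 0 IDs could be matched and none of the 227 genes could be placed in these processes, and the labelled cell type was not checked against its markers. The genes are therefore described by their levels, and 4 of them by ID.

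Total counts per library ran from 12358247 to 24274627. Each of the 227 genes had at least 10 counts in every library at 21% O2 for 72 h, and 1 gene had a count of 0 in some library. All 227 passed the filter on low counts that left 14465 genes for testing, and the rule on levels at 72 h makes that a matter of course.

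At 21% O2 the set of genes stood at a median of 2.45, 2.51, 3.72, 2.39 and 2.49 log2(CPM + 1) in replicates 1 to 5 at 48 h. At 72 h the medians were 4.47, 5.00, 5.08 and 5.09 in replicates 1 to 4. The 2 times did not overlap, yet replicate 3 at 48 h lay between the rest of its group and the 72 h libraries. The median of all 14465 genes tested moved little, from 4.11 to 4.30 over the 48 h libraries and from 4.24 to 4.35 over those at 72 h. Together the genes took 0.285% to 0.788% of the counts of a library at 48 h and 1.41% to 3.49% at 72 h. In bulk RNA, a change in the number of cells that express a gene and a change in RNA per cell cannot be told apart.

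**Figure D1:**
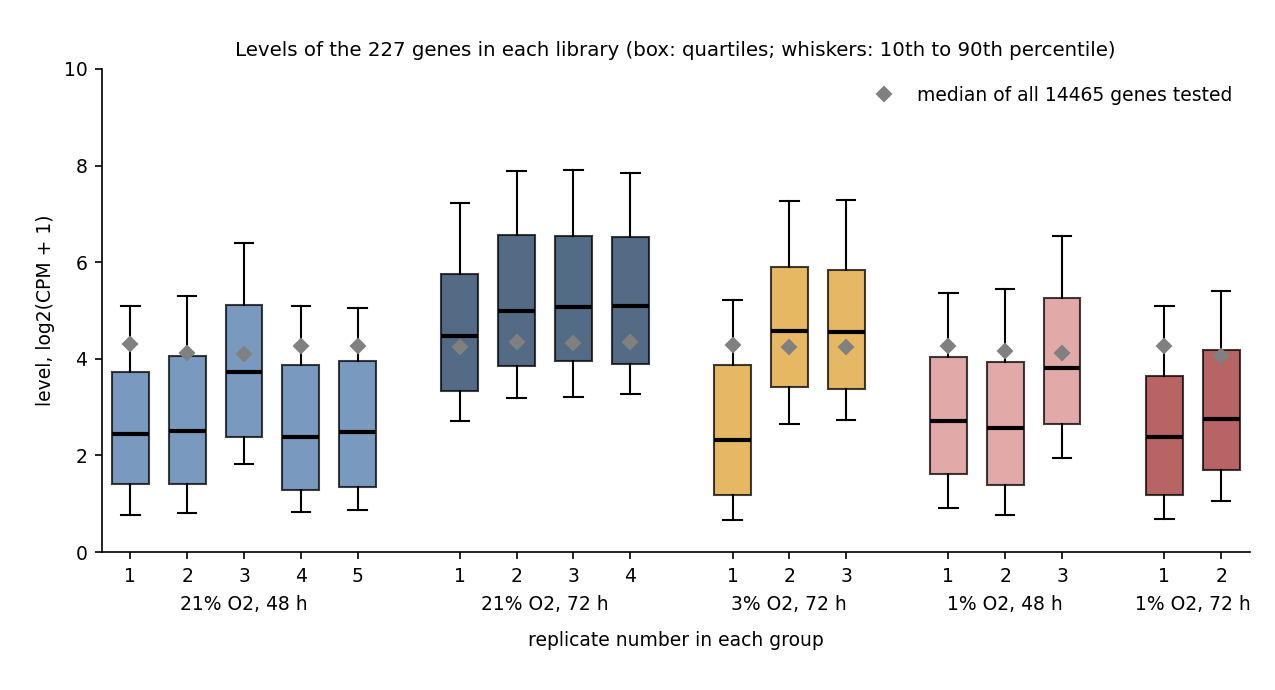
Levels of the 227 genes as log2(CPM + 1) in each of 17 libraries, grouped by oxygen and time. Boxes span the quartiles with the median as a line, whiskers the 10th to 90th percentile, and grey diamonds mark the median of all 14465 genes tested. The medians at 21% O2 for 72 h lie between 4.47 and 5.09, replicates 2 and 3 at 3% O2 at 4.58 and 4.56, and replicate 3 of each 48 h group at 3.72 and 3.80, with the other 9 libraries at 2.32 to 2.74.

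T ran from 1.51 to 4.02 with a median of 2.10. By size, 102 genes had a T under 2, 100 had one of 2 to 3 and 25 had one of 3 or more. The mean level at 21% O2 went from a median of 6.12 CPM over the genes at 48 h to 29.3 CPM at 72 h. At 48 h, 14 genes averaged under 1 CPM and 4 averaged 100 CPM or more. At 72 h the numbers were 0 and 50. The larger values of T were found among the genes more abundant at 72 h, a level that also enters T, so this is partly built in. The median T was 1.88 for the 40 genes with 5 to 10 CPM at 72 h, 2.06 for the 74 with 10 to 30 CPM, 2.22 for the 63 with 30 to 100 CPM and 2.50 for the 50 above that. The added 1 CPM shrinks differences of low genes on this scale.

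In 209 of the 227 genes every library at 72 h lay above every library at 48 h, where 11.2% of all genes tested did so and 2.65% lay below. Since this contrast chose the genes, nothing is read from the difference. Of the 18 genes whose times overlapped, 16 no longer did so without replicate 3 at 48 h. By the edgeR quasi-likelihood test 193 of the 227 were among the genes higher at 72 h with an adjusted p under 0.05, a call made for 6.47% of the genes tested (3.15% were called lower), and this too follows from the choice. At the edge of the rule, the 3 genes just inside had T of 1.507, 1.509 and 1.514, and the 3 just outside had 1.499, 1.497 and 1.491. The first inside went from 2.85 ± 1.12 CPM (SD, n = 5) to 9.80 ± 2.49 CPM (SD, n = 4), and the first outside from 75.8 ± 53.3 CPM (SD, n = 5) to 184.1 ± 15.4 CPM (SD, n = 4). The genes on either side of the limit thus differ little in T, and the limit marks no break.

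ENSECAG00000024219 had the largest T, 4.02. Its level at 21% O2 for 48 h was 16.8, 16.2, 105.6, 15.1 and 18.0 CPM in replicates 1 to 5, and at 72 h it was 286.6, 403.4, 476.2 and 495.9 CPM in replicates 1 to 4. The 4 libraries at 72 h were all above the highest at 48 h, which was replicate 3. At 3% O2 for 72 h it had 13.7, 278.3 and 277.6 CPM, so that replicate 1 stood at the level of the low 48 h libraries and the other 2 near replicate 1 at 21% O2. At 1% O2 it had 24.2, 8.54 and 128.6 CPM at 48 h and 8.48 and 16.9 CPM at 72 h. Only replicate 3 at 48 h was high there.

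ENSECAG00000031389 followed with a T of 3.99. It had 12.3, 33.4, 122.3, 16.6 and 15.8 CPM at 21% O2 for 48 h and 274.8, 552.5, 502.0 and 497.1 CPM at 72 h. At 3% O2 for 72 h the values were 17.2, 246.2 and 247.4 CPM, at 1% O2 for 48 h 17.1, 24.1 and 113.8 CPM, and at 1% O2 for 72 h 16.4 and 24.7 CPM. The libraries that were high and low were the same as for the first gene.

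The gene of highest mean level at 21% O2 for 72 h does not share this pattern and owes its place to 1 library. It was singled out after its values were seen and is not named here. It had 213.6, 330.2 and 374.6 CPM in replicates 1, 2 and 4 at 72 h but 11278 CPM in replicate 3, against 109.8 to 270.6 CPM at 48 h. One further gene had a value at least 10 times the next in a 72 h library at 21% O2, also in replicate 3. It had 2541 CPM there and 48.9 to 75.3 CPM in the other 3 libraries, against 24.8 to 60.7 CPM at 48 h. Without replicate 3 at 72 h, T was 0.67 for the first gene and 0.55 for the second, so neither would have been chosen. Together they made up 39.6% of the summed CPM of the set in that library, where the sum was 34867 CPM. Without both, the sums at 21% O2 for 72 h ran from 13856 to 21714 CPM. In all libraries but that one, the first gene had 109.8 to 598.6 CPM.

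**Figure D2:**
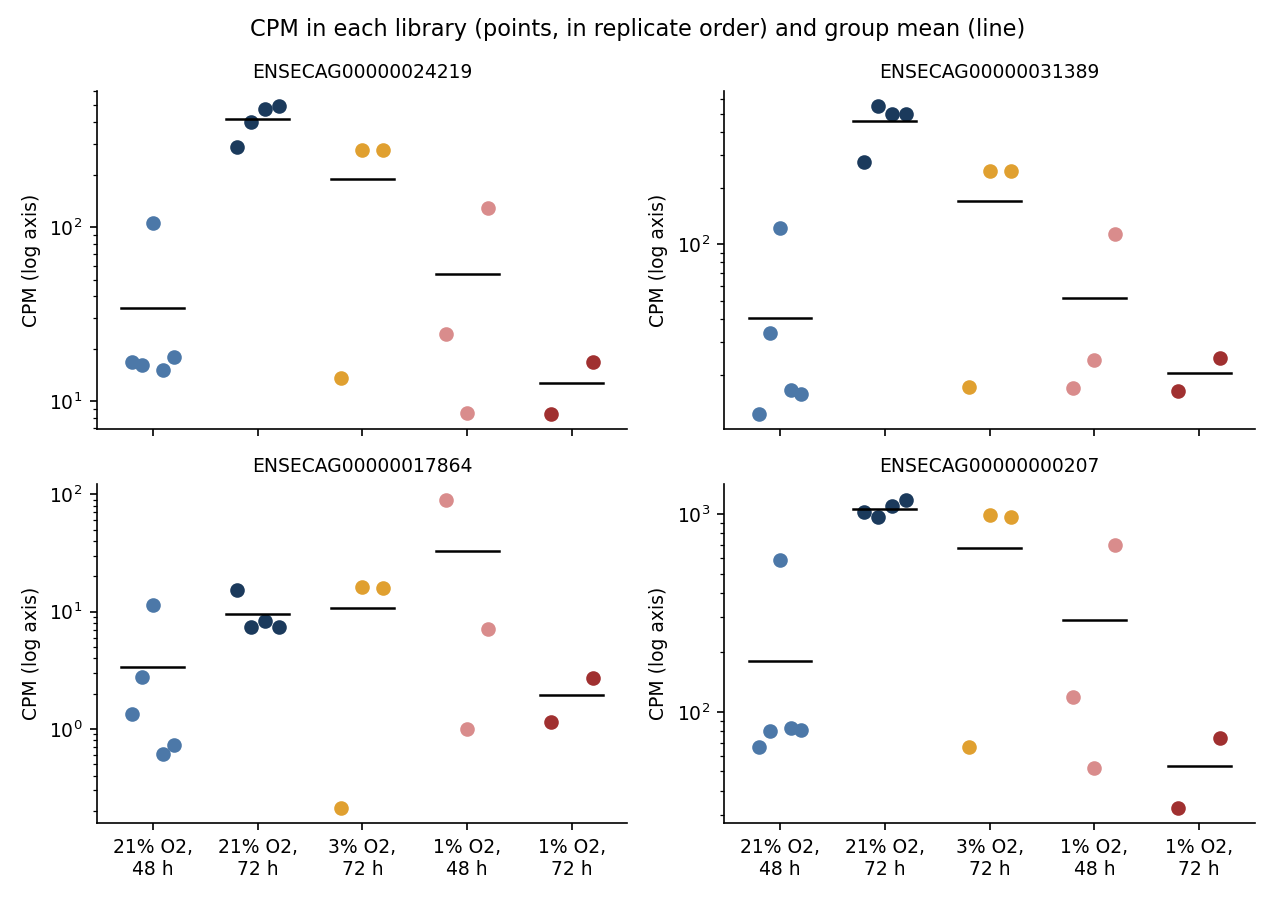
CPM of 4 genes in each library on a log axis, as points in replicate order, with the group mean as a line. In the upper panels are the genes with the largest T, and in the lower panels those with the largest difference between times at 1% O2; in 3 of the 4 panels replicate 3 is the highest library of both 48 h groups, and in all 4 replicate 1 is the lowest at 3% O2.

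At 3% O2 for 72 h the set split by library. The medians were 2.32 log2(CPM + 1) in replicate 1, and 4.58 and 4.56 in replicates 2 and 3. Replicate 1 was below both other libraries in 224 of the 227 genes, against 38.1% of all genes tested, and the median difference from their mean was -2.04 over the set and 0.07 over all genes tested. The 90th percentile of that difference over the set was still -0.90, and the 10th was -3.38. The median difference from replicate 1 at 21% O2 for 72 h, a library that entered the choice of genes, was 0.03 for replicate 2, with 127 of 227 genes higher, and 8.1e-06 for replicate 3, with 114 higher. Over all genes tested 53.1% and 51.5% were higher, shares near those of the set.

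Set beside 21% O2 at 72 h, the mean at 3% O2 was lower in all 227 genes, with a median difference of -1.09 and a range of -2.25 to -0.23, where all genes tested had a median of -0.03. The groups did not overlap in 62 of them (6.55% of all genes tested were lower without overlap and 3.62% higher). The 21% O2 libraries at 72 h entered the choice of genes for being high, so a lower value elsewhere is built into the comparison and nothing is read from it. The size of the difference also depends on replicate 1 at 3% O2, as the values of the single libraries show.

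The 2 libraries at 1% O2 for 72 h had medians of 2.37 and 2.74 log2(CPM + 1), near replicate 1 at 3% O2 and the 4 lower libraries at 48 h and 21% O2. Their mean was lower than that at 21% O2 for 72 h in all 227 genes, by a median of -2.21, against -0.07 over all genes tested. The groups did not overlap in 218 genes (20.3% of all genes tested were lower without overlap and 13.7% higher), with the same limit on what can be read from it. At 1% O2 for 72 h, 24 of the genes averaged under 1 CPM, against 0 at 3% and 0 at 21% O2. The 0 at 21% O2 is set by the rule, and the 0 at 3% O2 hides a split by library. In single libraries at 72 h, 47 and 22 genes were under 1 CPM at 1% O2, and 47, 0 and 0 at 3% O2.

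**Figure D3:**
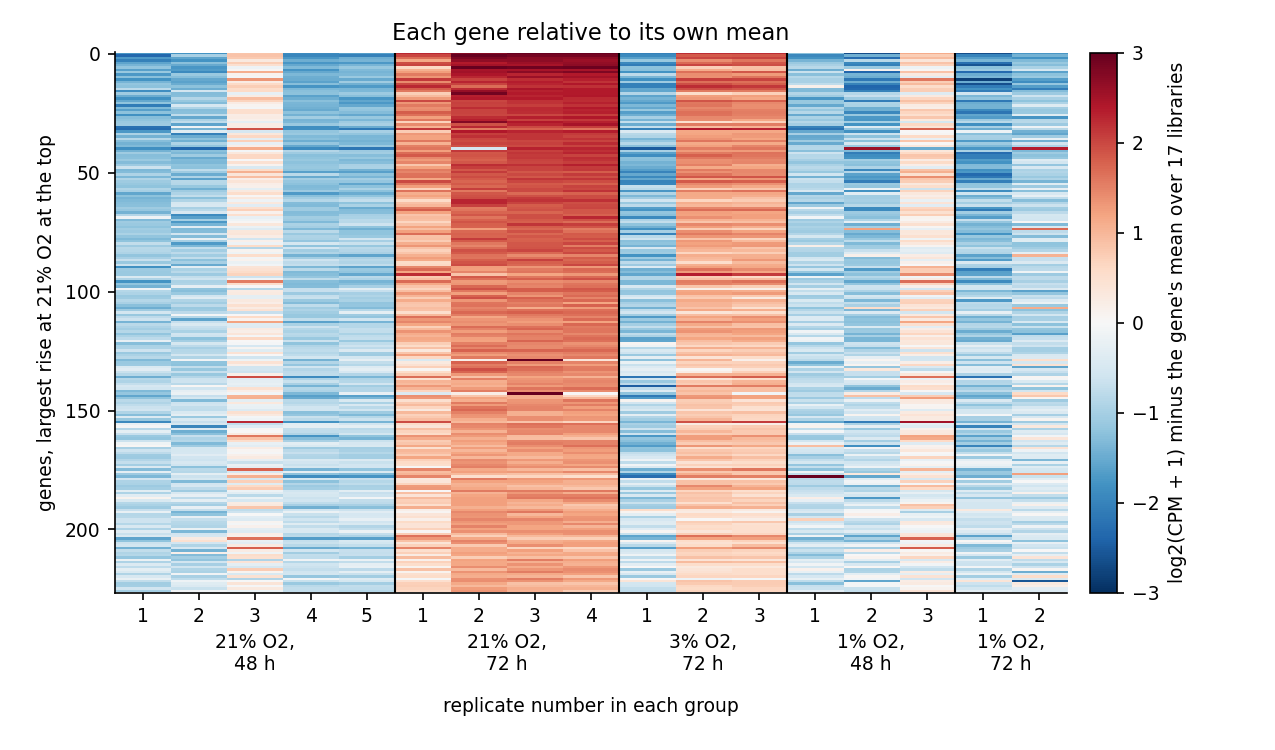
The 227 genes in rows, ordered by T with the largest at the top, and the 17 libraries in columns by group and replicate. Colour gives log2(CPM + 1) less the gene's mean over the 17 libraries, from -3 (blue) to 3 (red). Whole columns change colour together, with 88.2% of the variation in 1 component, which the choice of genes by 9 of these libraries favours.

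The means compared for 1% and 3% O2 at 72 h come from no library that chose the genes. The comparison asks whether the set differs between severe and moderate hypoxia. The mean was lower at 1% O2 in 223 of the 227 genes and in 56.1% of all genes tested. The median difference was -1.17 in log2(CPM + 1), from -3.00 to 0.40, against -0.05 over all genes tested, and 143 genes were lower by 1 or more, against 1.74% of all. No gene of the set passed the test, and neither did any other gene: after Benjamini-Hochberg adjustment edgeR gave 0 calls among 14465 (percent called 0), as did DESeq2 and limma-voom. The smallest adjusted p in the set was 0.552. At an unadjusted p under 0.05, 129 of the 227 were lower and 0 higher by edgeR, where 4.49% of all genes tested were lower and 4.26% higher. DESeq2 gave 142 lower and limma-voom 34 at the same limit. The edgeR count moved with single libraries, to 30 and 83 without replicates 1 and 2 at 1% O2, and to 183, 66 and 62 without replicates 1, 2 and 3 at 3% O2.

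The groups at 1% and 3% O2 did not overlap in 50 of the 227 genes, all lower at 1% O2 (11.7% of all genes tested were lower without overlap and 9.16% higher). Without replicate 1 at 3% O2 the groups were apart in 220 genes, against 27.3% of all genes tested, and the median difference was -1.83 with 227 of 227 genes lower. Even then 0 genes passed, the smallest adjusted p in the set being 0.0981 by edgeR, where leaving out other libraries gave 0.0601 to 0.939. Replicate 1 at 3% O2 was higher than replicate 1 at 1% O2 in 128 of the 227 genes, with a median difference of 0.05, close to all genes tested (52.2% higher, median 0.01). It was higher than replicate 2 at 1% O2 in 70 of the 227, with a median of -0.33, where all genes tested had 60.5% higher and a median of 0.14. Against replicate 2 at 1% O2 it was thus the lower library in most of the set.

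The difference between 1% and 3% O2 was larger in genes with a larger T. Its median was -0.85 for the 102 genes with T under 2, -1.38 for the 100 with T of 2 to 3 and -2.21 for the 25 with T of 3 or more. These 2 differences share no library, but genes with a larger T were also more abundant. Their median levels at 21% O2 for 72 h were 22.7, 29.8 and 88.1 CPM in the same order. The added 1 CPM shrinks both differences in low genes. The genes were also taken in the bands of level at 21% O2 for 72 h. From the lowest band up, the medians for 1% against 3% O2 were -0.95, -1.13, -1.25 and -1.27. All medians for 1% against 3% O2 include replicate 1 at 3% O2, without which the median over the whole set was -1.83. By T, from low to high, the medians for 72 against 48 h at 1% O2 were -0.21, -0.47 and -0.82. These medians include replicate 3 at 1% O2 for 48 h. Without that library the median for this comparison over the whole set was -0.016, with 122 genes lower. The medians by T were not taken again without either library, so whether the order holds in either comparison was not tested.

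Time at 1% O2 is the other comparison whose means come from no library that chose the genes. It asks whether the rise with time is also seen under severe hypoxia. The medians were 2.71, 2.57 and 3.80 log2(CPM + 1) in replicates 1 to 3 at 48 h, and 2.37 and 2.74 in replicates 1 and 2 at 72 h. Both 72 h libraries lay in or below the range at 48 h, and replicate 3 at 48 h stood above the rest. The mean was lower at 72 h in 190 of the 227 genes and higher in 37, against 50.9% lower over all genes tested. The median difference was -0.36 in log2(CPM + 1), from -2.01 to 0.40, with 145 genes within 0.5 of 0, and over all genes tested it was -0.01.

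By edgeR 0 of the 227 genes, and 0 of all 14465, passed between 48 h and 72 h at 1% O2 (percent called 0). All adjusted p rounded to 1.00. At an unadjusted p under 0.05, 4 genes of the set were lower and 0 higher, where 1.07% of all genes tested were lower and 0.712% higher. That fit took its spread from all 17 libraries. With only the groups compared in the fit, 224 genes of the set were tested, and 5 were lower and 0 higher. Of the 13618 genes then tested, 39 were lower and 2 higher. With all 17 libraries, DESeq2 and limma-voom also called 0, with 9 and 0 genes of the set lower at that limit. By edgeR that count was 4, 18 and 1 without replicates 1, 2 and 3 at 48 h, and leaving out replicate 1 or 2 at 72 h gave 2 or 3. The groups did not overlap in 11 genes, 9 lower and 2 higher at 72 h (3.98% and 3.46% of all genes tested). Without replicate 3 at 48 h the median difference was -0.016 in log2(CPM + 1), with 122 of 227 genes lower, and in the edgeR fold change the median went from -0.55 to 0.06.

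**Figure D4:**
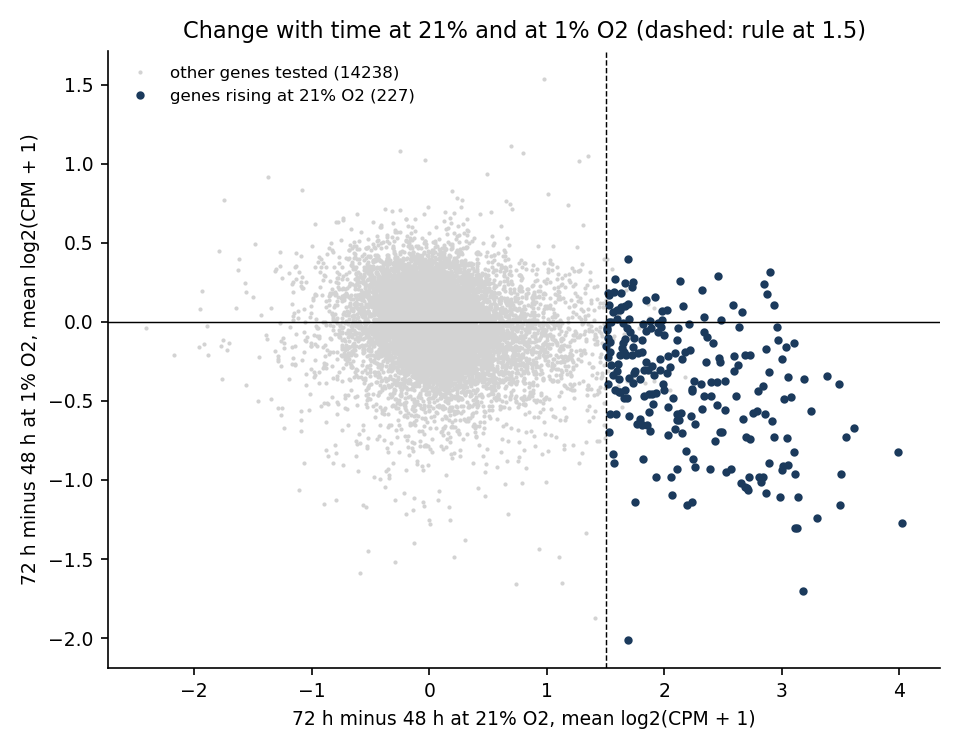
Difference between 72 h and 48 h in mean log2(CPM + 1) at 21% O2 (horizontal) and at 1% O2 (vertical), for the 227 genes in dark blue and 14238 other genes tested in grey, with the limit of 1.5 dashed. At 1% O2 the 227 genes lie between -2.01 and 0.40, and 190 of them are below 0; without replicate 3 at 48 h, 122 are below 0.

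The 37 genes with a higher mean at 72 h than at 48 h at 1% O2 differed little between the times, by a median of 0.11 and at most 0.40. They had a median T of 1.74, against 2.15 for the other 190, and a median level of 45.2 CPM at 21% O2 for 72 h, against 26.0 CPM. In replicate 3 at 48 h and 1% O2 they stood at a median of 3.88 log2(CPM + 1), and in replicates 1 and 2 at 3.27 and 3.90, so that replicate 3 did not stand out in them. None of the 25 genes with a T of 3 or more was among the 37. These groups were formed from the values and are described only.

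ENSECAG00000017864 had the largest difference between times at 1% O2, -2.01 in log2(CPM + 1). It had 89.7, 1.00 and 7.15 CPM at 48 h and 1.15 and 2.72 CPM at 72 h, so replicate 1 was far above the rest at 48 h. By edgeR the log2 fold change was -4.01 ± 1.78 (SE, adjusted p = 1.00). At 21% O2 it had 1.33, 2.79, 11.3, 0.618 and 0.734 CPM at 48 h and 15.2, 7.40, 8.28 and 7.33 CPM at 72 h. Here replicate 3 at 48 h exceeded 3 of the 4 libraries at 72 h. At 3% O2 it had 0.213, 16.1 and 15.9 CPM.

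ENSECAG00000000207 came next at 1% O2, with a difference of -1.70 and a T of 3.18. At 1% O2 it had 118.3, 51.8 and 698.9 CPM at 48 h and 32.8 and 74.1 CPM at 72 h, with an edgeR log2 fold change of -2.46 ± 1.29 (SE, adjusted p = 1.00). At 21% O2 it had 66.7, 79.8, 587.7, 83.0 and 81.3 CPM at 48 h and 1019, 962, 1093 and 1179 CPM at 72 h. At 3% O2 for 72 h the values were 66.2, 990.4 and 959.5 CPM. Replicate 3 at either 48 h group was nearer to the 72 h libraries at 21% O2 than to its own group. Between 1% and 3% O2 at 72 h edgeR gave it a log2 fold change of -3.59 ± 1.37 (SE, adjusted p = 0.552).

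At 48 h the set was at a similar level at 1% and at 21% O2. The mean was higher at 1% O2 in 210 of the 227 genes, by a median of 0.26, against -0.01 over all genes tested, and the groups did not overlap in 1 gene, which was higher (0.878% of all genes tested were higher without overlap and 0.525% lower). The 48 h libraries at 21% O2 entered the choice for being low, so this direction is favoured by the choice, and nothing is read from it. Between libraries with the same replicate number in the titles, the median difference of 1% from 21% O2 was 0.17 for number 1, -0.09 for number 2 and 0.15 for number 3.

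Replicate 3 stood above the rest of its group at both oxygen levels at 48 h. At 21% O2 it was above all 4 others in 190 of the 227 genes, against 23.2% of all genes tested, with a median difference of 1.14 from their mean. At 1% O2 it was above both others in 188 genes, against 28.9% of all genes tested, with a median difference of 1.10. Of these, 173 were in both, 91.1% of the first and 92.0% of the second. Over all genes tested, 2475 were in both, 73.9% and 59.2% of those above the others at 21% and at 1% O2. Replicate 3 at 21% O2 for 48 h exceeded the lowest 72 h value at 21% O2 in 18 genes of the set and replicate 3 at 1% O2 in 17, where 48.5% and 53.6% of all genes tested did so. Small numbers are built in here, since the genes were chosen for high levels at 21% O2 for 72 h.

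**Figure D5:**
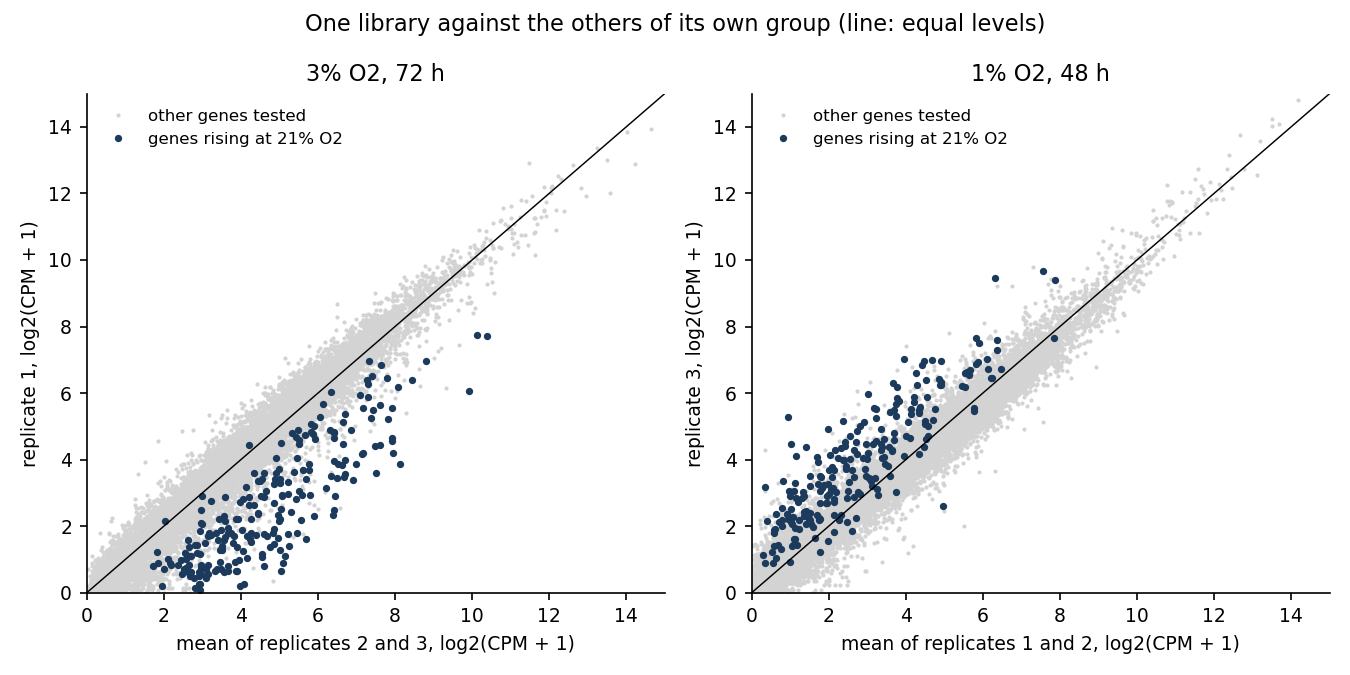
Levels as log2(CPM + 1) in 1 library against the mean of the others of its group, for the 227 genes in dark blue and the other genes tested in grey, with the line of equal levels. On the left, replicate 1 at 3% O2 for 72 h is below both others in 224 of the 227 genes; on the right, replicate 3 at 1% O2 for 48 h is above both others in 188.

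The library that stood apart at 21% O2 for 72 h was replicate 1, with 192 of 227 genes below the other 3 libraries (49.8% of all genes tested were below) and a median difference of -0.62 from their mean. The scaling factors (TMM) of the libraries, between 0.905 and 1.06, were 0.905 and 0.927 in replicate 3 of the 48 h groups, 0.920 in replicate 2 at 1% O2 for 72 h and 0.957 to 1.06 in all others. The part of these library differences in the results was not tested beyond leaving out single libraries.

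The genes moved together in the 8 libraries at 1% and 3% O2, which did not choose them. Taken as deviations from the mean of each group, the correlation of a gene with the mean of the other 226 had a median of 0.95 across the 8 libraries, and 152 of 227 genes were at 0.9 or more. Among the 14238 other genes tested, 5.51% reached 0.9 with the mean of the set, which is 785 genes, and the median was -0.23. The 8 points share 3 group means and rest largely on replicate 1 at 3% O2 and replicate 3 at 1% O2 for 48 h, so these values describe how the libraries differ and carry no p. Components were taken from levels less each gene's mean over the 8 libraries, so differences between the groups enter them. The first component of the set held 85.9% of its variation and the second 6.27%, against 47.9% and 29.1% for all genes tested.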

How the data were processed

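The authors deposited 1 table of whole-number read counts per Ensembl gene ID for each library. Per the submitters' processing notes, STAR 2.7.10a, HTSeq 0.13.5, fastp 0.23.2 and the build EquCab3.0 were used, with no role given. The annotation release, the strand setting and how multi-mapped reads were treated are not given in these sources. Values of overlapping, antisense and near-identical genes are therefore uncertain. Groups came from the labels and replicate numbers from the titles.

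CPM used the library sum of the deposited counts. Tests used edgeR 4.0.16 in R 4.3.3 (quasi-likelihood, TMM, filterByExpr) in 1 fit of 17 libraries, with Benjamini-Hochberg adjustment over all 14465 genes, a threshold of 0.05 and a common biological coefficient of variation of 25.1%. The fit was tested on simulated data. Standard errors are those implied by the test statistic. Alternatives were DESeq2 1.42.0, limma-voom (limma 3.58.1), other scalings, filters, pseudocounts and limits, a replicate block and each library left out.

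The genes, lists and tests were chosen with earlier results of these data known. The lists need symbols and were not used. Genes named by ID are the 2 of largest T and the 2 with the largest fall between times at 1% O2.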

Additional observations from a re-analysis of the deposited data

Results flagged for a closer look

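In groups of 4 and 5 libraries, 9 of 14 sets of values had 1 library set apart, judged by its gap to the next value as a share of the range, where chance gives about 1 in 20. The sets reuse the same libraries and genes chosen for their levels there, so they are not independent, and the 9 cannot be judged against that rate. Replicate 3 at 21% O2 for 48 h had a median level of 3.72 log2(CPM + 1) over the 227 genes, with the others at 2.39 to 2.51, and a summed level of 7876 CPM, with the others at 2851 to 3629. The same library had 105.6 CPM of ENSECAG00000024219 (others 15.1 to 18.0), 122.3 CPM of ENSECAG00000031389 (others 12.3 to 33.4), 11.3 CPM of ENSECAG00000017864 (others 0.618 to 2.79) and 587.7 CPM of ENSECAG00000000207 (others 66.7 to 83.0). At 21% O2 for 72 h, replicate 1 had a median level of 4.47 (others 5.00 to 5.09) and 15.2 CPM of ENSECAG00000017864 (others 7.33 to 8.28). The most abundant gene of the set had 11278 CPM in replicate 3 at 72 h (others 213.6 to 374.6).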

How the results depend on the processing

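The number of genes rising with time at 21% O2 was 462 with T of at least 1 and 125 with T of at least 2, against 227. It was 208 to 281 when each library at 21% O2 was left out in turn, and 187 to 257 under the other scalings, pseudocounts and limits on CPM. At least 205 of the 227 were kept when a library was left out. Both tests gave 0 genes at an adjusted p under 0.05 under every alternative run. An adjusted p of 0.1 was added after seeing the data and applied to the main fits only, where both again gave 0 genes. For 1% against 3% O2, fits with a library left out could fall under 0.1. Without replicate 1 at 3% O2, for example, the smallest adjusted p by edgeR was 0.0981. The median difference in the set for time at 1% O2 ran from -0.62 to -0.016 when libraries were left out, and that of 1% against 3% O2 from -1.83 to -0.85. The replicate block also gave 0 genes in both tests, with median fold changes in the set of -0.14 and -1.11 on the log2 scale in place of -0.55 and -1.56. Same-numbered libraries had deviations with r = 0.38 and 0.29 for time at 1% O2 and 0.43 and 0.37 for 1% against 3% O2. There were only 2 pairs each, and whether such libraries share more than a number is not known. Groups of 2 and 3 libraries limit both tests, so 0 calls do not show that levels were equal.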
